A study of Mus musculus with 3 samples.

Results

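The transcription factors that decide whether a B cell stays a B cell or becomes an antibody-secreting plasma cell were examined in lymphomas of the pBIC mouse, in which one of them, Prdm1, is a deleted gene. The 9 genes were chosen by name, as the circuit around Prdm1: Prdm1, Irf4, Xbp1, Bcl6, Bach2, Pax5, Irf8, Spib and Spi1. All 9 were found among the 37646 genes listed, and all 9 passed the filter on low counts that left 11478 genes for testing. The data are read counts from 3 splenic lymphomas of C57BL/6 mice, 1 library each, forming 1 group. Every tumour carries floxed Trp53 (p53F/F), floxed Prdm1 (Blimp1F/F), an allele of active IKK2 that Cre switches on by removing a stop (IKK2castopF/stopF) and 1 Cg1Cre allele, which expresses Cre from the Ighg1 locus in B cells that have begun to switch class. Spleens came from moribund mice, and B220+GFP+ cells were sorted after dead cells were excluded. Neither the ages of the mice nor the exons between the loxP sites are stated in the labels. Normal germinal centre B cells, which the design names as controls, were not analysed here, so no value below is a change from normal.

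In normal B cells these factors form a circuit of mutual repression. PAX5 holds B cell identity, BCL6 holds the germinal centre state, and BACH2 with BCL6 represses Prdm1. A strong signal through IRF4 represses Bcl6 and induces Prdm1, whose product BLIMP1 then silences Pax5, Bcl6, Spib and other B cell genes, while XBP1 expands the secretory apparatus. IRF8, PU.1 (encoded by Spi1) and SPI-B (encoded by Spib) act together in B cells. IRF8 and PU.1 restrain plasma cell differentiation in mice. ABC-type diffuse large B cell lymphoma is known for high IRF4 together with a block at BLIMP1.

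Library totals lay between 15022902 and 15141009 counts. Marker genes of B cells, 10 in all, summed to between 11475 and 13378 CPM (the unit of counts after division by a library's size, adjusted with edgeR's TMM factors) over the 3 tumours, and those of T cells, also 10, to between 74.8 and 128 CPM. Without Cd2 and Lck the T cell sums lay between 24.2 and 45.1 CPM. Of all genes tested, which had already passed the filter on low counts, 94.2% reached 1 CPM in every tumour. Of the 37646 genes listed, 10816 did. Because these are bulk libraries, fewer cells of a type and less RNA per cell cannot be told apart. Spread between tumours was tested with an edgeR fit over all 11478 genes that asks whether a gene varied more than genes of similar abundance. Of all genes tested, 16 (0.139%) had a Benjamini-Hochberg adjusted p under 0.05 in that test, and 0 did so without tumour 1, without tumour 2 or with a filter at a mean count of 10. The circuit supplied 0 of these 16, and DESeq2, used as an alternative, also called 0 of the 9. At an unadjusted p under 0.05 the edgeR test held 2 of the 9, Irf8 and Pax5, against 6.27% of all genes tested. Labels do not state that the tumours came from separate animals, so these p-values measure only the spread between these 3 samples.

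The 9 genes fell into 2 tiers that did not overlap in any tumour. Levels of different genes are given as TPM, counts divided by the union length of annotated exons and scaled to the same total in each tumour. The 6 abundant genes, Spib, Irf8, Pax5, Irf4, Xbp1 and Spi1, had at least 56.8 TPM in every tumour. Prdm1, Bach2 and Bcl6 had at most 9.81 TPM. Spib had the highest mean, 424 ± 171 TPM (SD, n = 3), then Irf8 with 355 ± 137 TPM, Pax5 with 142 ± 79.2 TPM, Irf4 with 120 ± 62.7 TPM, Xbp1 with 94.6 ± 38.0 TPM and Spi1 with 67.0 ± 10.5 TPM. In the lower tier Prdm1 averaged 6.21 ± 3.19 TPM, Bach2 4.18 ± 3.25 TPM and Bcl6 3.37 ± 2.0 TPM. Within each tier no pair of neighbours in this order kept its direction in all 3 tumours. Of the 8 pairs of neighbours, Spi1 above Prdm1, the step between the tiers, kept its direction in 3 of 3 tumours (mean 3.32 ± 0.76 in log2(TPM + 1), 2.37 without division by length and 5.03 with the median transcript as length), and the other 7 changed direction in 1 or 2 tumours.

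**Figure D1:**
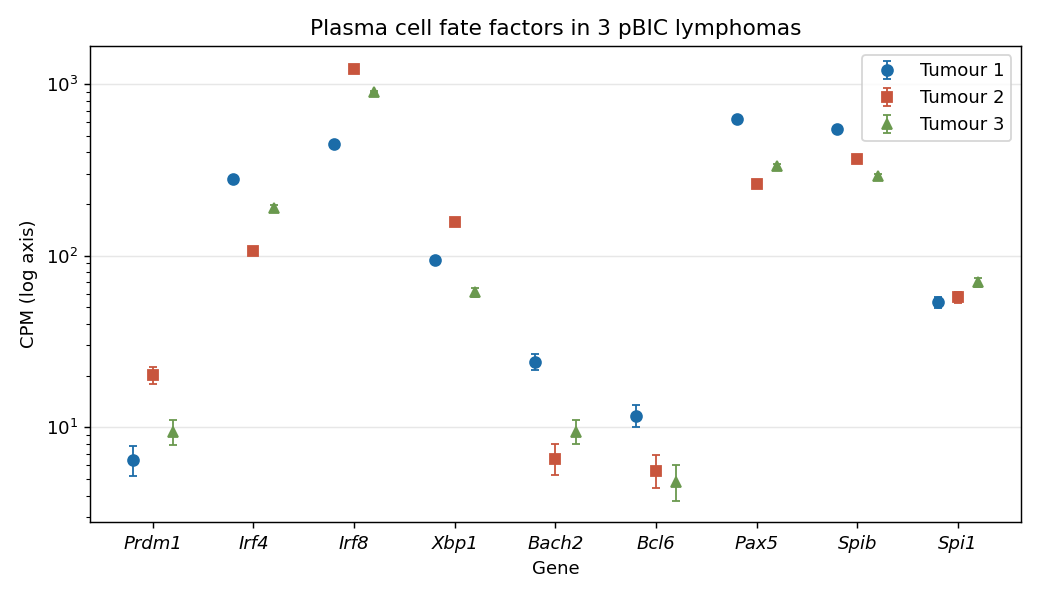
Level of each of the 9 genes in CPM on a log axis, 1 point per tumour, with 95% exact Poisson intervals that cover counting error only. The 3 points of Prdm1, Bach2 and Bcl6 all lie below 25 CPM and those of the other 6 genes above 50 CPM, and 5 genes (Irf4, Bach2, Bcl6, Pax5 and Spib) are highest in tumour 1.

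Prdm1, which encodes the repressor BLIMP1 (ENSMUSG00000038151.13, chr10:44437177-44528501 on the reverse strand of GRCm38), was still counted in every tumour. It had 99, 288 and 143 counts in tumours 1, 2 and 3, which is 6.41 CPM (95% exact Poisson interval 5.21 to 7.81), 20.0 CPM (17.8 to 22.5) and 9.35 CPM (7.88 to 11.01). Tumour 2 was highest and its interval lay above those of the other 2, and the intervals of tumours 1 and 3 did not overlap either. Intervals cover counting error only. Prdm1 was 3.12-fold higher in tumour 2 than in tumour 1 and 2.14-fold higher in tumour 2 than in tumour 3. Differences of more than 2-fold in these directions were shown by 3.55% and 7.94% of all genes tested, and a single library per tumour gives no replicate check. The mean of Prdm1, 11.9 ± 7.17 CPM (SD, n = 3), was 7.88 CPM without tumour 2. Against the spread of genes of similar abundance the 3 tumours did not pass (edgeR adjusted p = 0.966). Since reads were summed over all exons, message of a deleted allele and functional BLIMP1 message cannot be told apart.

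The promoters of Prdm1, Irf4, Pax5 and Bach2 are printed because Prdm1 and the other 3 lay on opposite sides of the contrast between tumours 2 and 1, and that of Bcl6 because its product represses Prdm1. Each window runs from 250 bases before to 50 bases after a RefSeq transcript start (GRCm38.p6), 5′ to 3′ on the strand of the gene, and capitals mark the motif matches described here.
Prdm1, chr10:44458699-44458998, reverse strand: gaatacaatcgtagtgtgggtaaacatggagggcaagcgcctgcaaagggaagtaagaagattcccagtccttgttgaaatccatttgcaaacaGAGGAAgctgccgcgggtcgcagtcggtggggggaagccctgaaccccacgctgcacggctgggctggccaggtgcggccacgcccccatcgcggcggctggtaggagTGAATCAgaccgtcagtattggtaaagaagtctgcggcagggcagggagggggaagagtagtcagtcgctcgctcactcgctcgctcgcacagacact
Irf4, chr13:30748983-30749282, forward strand: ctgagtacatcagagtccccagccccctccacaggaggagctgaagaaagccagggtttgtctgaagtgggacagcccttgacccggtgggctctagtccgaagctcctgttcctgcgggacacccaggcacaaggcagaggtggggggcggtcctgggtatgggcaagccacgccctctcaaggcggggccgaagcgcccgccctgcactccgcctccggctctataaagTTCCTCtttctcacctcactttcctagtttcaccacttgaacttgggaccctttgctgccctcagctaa
Pax5, chr4:44710645-44710944, reverse strand: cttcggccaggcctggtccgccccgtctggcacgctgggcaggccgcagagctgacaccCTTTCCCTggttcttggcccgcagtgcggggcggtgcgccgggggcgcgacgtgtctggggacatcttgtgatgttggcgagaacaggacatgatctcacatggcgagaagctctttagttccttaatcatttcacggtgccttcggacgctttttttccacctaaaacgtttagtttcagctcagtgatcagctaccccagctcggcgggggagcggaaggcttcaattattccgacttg
Bach2, chr4:32417185-32417484, forward strand: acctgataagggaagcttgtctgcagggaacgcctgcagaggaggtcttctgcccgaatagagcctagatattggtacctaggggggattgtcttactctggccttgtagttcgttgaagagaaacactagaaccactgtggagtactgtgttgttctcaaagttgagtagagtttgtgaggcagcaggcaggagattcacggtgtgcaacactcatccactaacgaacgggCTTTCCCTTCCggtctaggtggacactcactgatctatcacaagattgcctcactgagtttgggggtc
Bcl6, chr16:23981234-23981533, reverse strand: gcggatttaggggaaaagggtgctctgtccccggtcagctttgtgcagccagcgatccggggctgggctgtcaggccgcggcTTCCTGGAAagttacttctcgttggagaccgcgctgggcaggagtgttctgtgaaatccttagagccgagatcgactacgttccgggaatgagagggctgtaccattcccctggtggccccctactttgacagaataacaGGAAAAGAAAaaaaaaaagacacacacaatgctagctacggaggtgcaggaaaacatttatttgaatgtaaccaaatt
The windows of Prdm1 and Bach2 and the Bcl6 window shown lie inside the annotated genes, downstream of their outermost start, and that of Pax5 lies just upstream of the annotated gene. Such windows existed for 8 of the 9 genes, 10 windows in all, and 8 motifs were searched on both strands. The core shared by BACH2 and AP-1 was searched as TGANTCA, where N is any base. In Prdm1 this pattern matched as TGAATCA at bases -48 to -42 from the start, and the PU.1 and SPI-B core GAGGAA at -156 to -151. The patterns TGANTCA and GAGGAA occur in 7.81% and 28.3% of all 32851 windows. Irf4 held the core GAGGAA at -19 to -14 on the opposite strand. The pattern AGNGAAAG, searched for a BLIMP1 core, was found in 8.63% of windows. It lay in Pax5 at -191 to -184 and in Bach2 at -18 to -11, both on the opposite strand and printed as CTTTCCCT. In Bach2 it overlapped a composite element of ETS and IRF factors, GGAA and GAAA with any 2 bases between, at -17 to -8 (2.72% of windows). The second window of Bcl6 held the BCL6 core TTCCTNGAA at -168 to -160, which 1.59% of windows hold, and the composite element at -28 to -19. The other window of Bcl6 held GAGGAA at -191 to -186. Of the other motifs, the IRF element, GAAA and GAAA with any 2 bases between (3.44% of windows), and the XBP1 core TGACGTG (2.01%) were in 0 of the 10 windows, and the NF-κB consensus (8.46%) was in 1, that of Spib. A match describes letters in the window and does not show binding. Patterns with N are loose, and the base found at N was not weighed.

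Irf4, the factor that drives B cells toward plasma cells (ENSMUSG00000021356.10, chr13:30749226-30766976), was abundant in all tumours and lowest where Prdm1 was highest. It had 278, 107 and 190 CPM in tumours 1, 2 and 3. Tumour 1 was highest, tumour 2 lowest, and Irf4 was 2.60-fold lower in tumour 2 than in tumour 1. The spread did not pass the edgeR test (adjusted p = 0.798). Within a tumour, Irf4 stood above Prdm1 by 5.29, 2.49 and 4.28 in log2(TPM + 1) in tumours 1, 2 and 3. The mean difference Irf4 minus Prdm1 was 4.02 ± 1.42 (SD, n = 3), 16.2-fold, in 3 of 3 tumours, and was 3.39 without tumour 1 and 4.79 without tumour 2. Its two-sided exact sign-flip p was 0.25, the smallest that 3 tumours allow, and 0.35 after adjustment over the 14 pairs compared.

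Xbp1, which encodes the factor that builds the secretory apparatus of plasma cells (ENSMUSG00000020484.19, chr11:5520659-5525893), was highest in tumour 2, as Prdm1 was, but lowest in tumour 3. It had 93.8, 158 and 61.1 CPM in tumours 1, 2 and 3 (edgeR adjusted p = 0.807), and was 2.58-fold higher in tumour 2 than in tumour 3. Xbp1 minus Prdm1 was 3.74 ± 0.54 in log2(TPM + 1), positive in 3 of 3 tumours (exact sign-flip p = 0.25), at 3.06 without division by length and 4.71 with the median transcript as length. Xbp1 minus Irf4 changed direction between tumours, at -0.97, 1.14 and -1.03, so tumour 2 was the only one of the 3 in which Xbp1 stood above Irf4. Its mean of -0.28 ± 1.24 turned to 0.28 with the longest transcript as length, to 0.057 without tumour 1 and to 0.089 without tumour 3. The active form of XBP1 is made only after the kinase IRE1, encoded by Ern1, cuts a short intron out of the cytoplasmic message and so shifts its reading frame. That intron is 26 bases long and lies in exon 4 of the transcript Xbp1-201, at chr11:5524279-5524304. It is printed in capitals within 25 bases on each side, because counts per gene cannot tell the cut from the uncut form.
Xbp1 intron, forward strand: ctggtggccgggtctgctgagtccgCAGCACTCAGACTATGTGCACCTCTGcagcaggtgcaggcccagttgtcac
Among the genes that sense unfolded proteins, 7 of 7 reached 1 CPM in every tumour and 0 passed the edgeR test. The ligase gene Rtcb, whose product rejoins the cut Xbp1 message, had 489 ± 54.0 CPM, Atf4 311 ± 45.7 CPM and Atf6 225 ± 44.5 CPM. Ern1 had 27.0 ± 8.33 CPM and Ddit3 21.8 ± 10.2 CPM. Ern1 was lowest, at 17.6 CPM, in tumour 2, the tumour with the most Xbp1.

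Genes that XBP1 activates were all expressed, and more of them than not were highest in tumour 2. Of 19 XBP1 target genes 19 reached 1 CPM in every tumour, and 14 were highest in tumour 2, where 35.8% of all genes tested were highest. The median log2 ratio of tumour 2 over tumour 1 was 0.40 for the list, beside 0.00 for all genes tested. The folding enzyme gene Pdia6 had 492, 840.1 and 420.1 CPM in tumours 1, 2 and 3, and Sdf2l1, a partner of the chaperone BiP, had 103, 209 and 68.7 CPM. Both follow the order of Xbp1 itself. In the other direction, 3 of the 19 were lowest in tumour 2, against 34.5% of all genes tested. They were Dnajb9 (50.6, 28.0 and 39.3 CPM in tumours 1, 2 and 3), Syvn1 (316, 260 and 303 CPM) and Sec61a1 (281, 261 and 313 CPM). Ssr1 had 416 ± 67.6 CPM and Spcs2 327 ± 106 CPM. The lowest members were Srp54a at 2.73 ± 0.332 CPM and Sec24d at 8.11 ± 4.68 CPM. In the edgeR test 0 of the 19 were called.

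Bcl6, the repressor that holds the germinal centre state (ENSMUSG00000022508.5, chr16:23965052-23988852, reverse strand), had the lowest mean TPM of the 9, though Bach2 was lower in tumour 2 and, by mean level, with the longest or the median transcript as length. It had 180, 80 and 73 counts in tumours 1, 2 and 3, which is 11.7 CPM (10.0 to 13.5), 5.57 CPM (4.41 to 6.93) and 4.77 CPM (3.74 to 6.00). Tumour 1 was highest, and the intervals of tumours 2 and 3 overlapped. The spread did not pass the edgeR test (adjusted p = 0.997). Bcl6 minus Prdm1 was 0.49, -1.73 and -0.94 in log2(TPM + 1), so Bcl6 stood above Prdm1 in tumour 1 and below it in tumours 2 and 3. The mean difference was -0.73 ± 1.12 (SD, n = 3), with an exact sign-flip p of 0.5, and it was -1.33 without tumour 1 and -0.05 with the longest transcript as length. Irf8, which is also high in germinal centre B cells, stood on average 82.1-fold above Bcl6 in TPM + 1, with Irf8 minus Bcl6 at 4.96, 7.19 and 6.93. The mean of 6.36 was 5.95 without tumour 2, 7.06 without tumour 1 and 7.39 with the median transcript as length.

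Bach2, whose product represses Prdm1 and delays plasma cell entry (ENSMUSG00000040270.16, chr4:32238804-32586108), had the largest range of the 9 as a ratio, 3.68-fold in CPM. It had 371, 94 and 144 counts, or 24.0, 6.54 and 9.41 CPM, in tumours 1, 2 and 3, with a mean of 13.3 ± 9.38 CPM that was 7.98 CPM without tumour 1. Bach2 was 3.68-fold lower in tumour 2 than in tumour 1 and 2.55-fold lower in tumour 3 than in tumour 1 (edgeR adjusted p = 0.815). Bach2 minus Prdm1 was 0.90, -1.95 and -0.65 in log2(TPM + 1). Bach2 thus stood above Prdm1 in tumour 1 and below it in tumours 2 and 3, with a mean of -0.57 ± 1.43 and an exact sign-flip p of 0.75. That mean was 0.095 without division by length, 0.13 without tumour 2 and -1.30 without tumour 1. An antisense gene, Bach2os, shares 537 exon bases with Bach2 and had 7, 2 and 0 counts, few beside those of Bach2.

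Pax5, the factor of B cell identity (ENSMUSG00000014030.15, chr4:44524757-44710487, reverse strand), kept a high level in every tumour. It had 629, 262 and 335 CPM in tumours 1, 2 and 3 and was 2.40-fold lower in tumour 2 than in tumour 1 (edgeR adjusted p = 0.791). Pax5 minus Prdm1 was 5.61, 2.92 and 4.25 in log2(TPM + 1), positive in 3 of 3 tumours, with a mean of 4.26 ± 1.35 (exact sign-flip p = 0.25). The mean was 3.58 without tumour 1, 4.93 without tumour 2 and 6.76 with the median transcript as length. In counts, without division by length, there were 98.0 reads of Pax5 for each read of Prdm1 in tumour 1, 13.1 in tumour 2 and 35.8 in tumour 3. Pax5 minus Bach2 was 4.71, 4.87 and 4.90 in log2(TPM + 1), where the added 1 weighs on the low Bach2, and 7.44 on average with the median transcript as length. In counts there were 26.2 reads of Pax5 for each read of Bach2 in tumour 1, 40.0 in tumour 2 and 35.6 in tumour 3. Bach2 is itself known as a gene that PAX5 activates. An RNA on the opposite strand of Pax5, 5730488B01Rik, shares 636 exon bases with it and had 229, 125 and 100 counts, against 9702, 3760 and 5121 for Pax5. Whether counting used strand is not given in the sources used here.

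**Figure D2:**
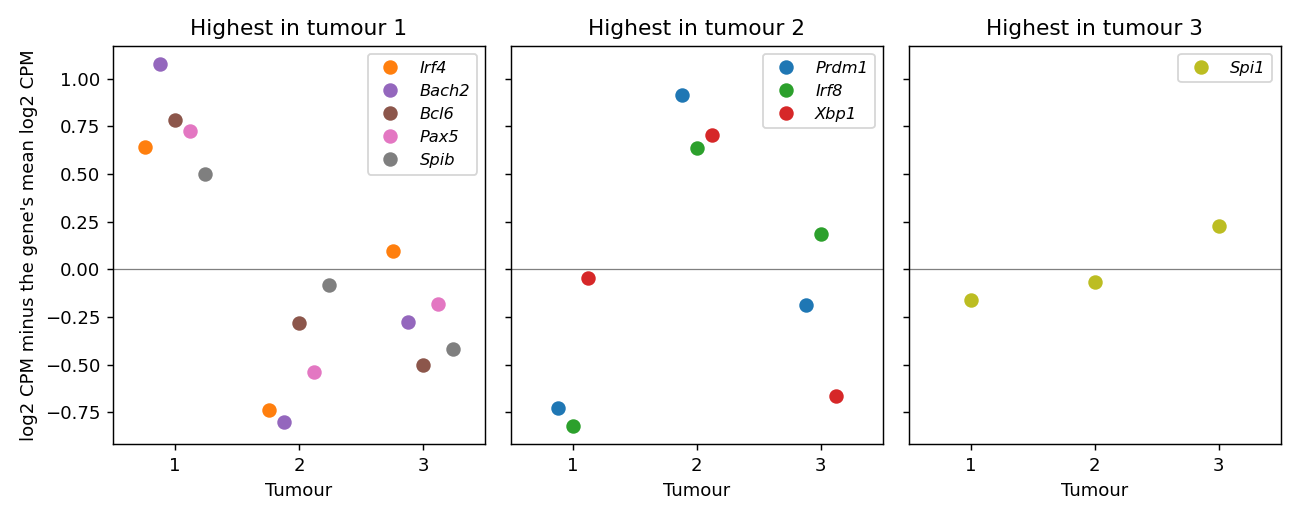
Centred level of each gene, its log2 CPM in a tumour minus its mean log2 CPM over the 3 tumours, in 3 panels by the tumour where the gene was highest. Irf4, Bach2, Bcl6, Pax5 and Spib are highest in tumour 1, Prdm1, Irf8 and Xbp1 in tumour 2, and Spi1 stays within 0.25 of its mean.

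Genes that PAX5 activates were mostly highest in tumour 1, as Pax5 was. Of 14 such genes 12 reached 1 CPM in every tumour, the same number was tested and 0 were called. Of the 12, 9 were highest in tumour 1, where 32.4% of all genes tested were highest. In tumour 2 over tumour 1, 6 of the 12 were more than 2-fold lower, against 10.1% of all genes tested, and in tumour 3 over tumour 1, 5 of the 12, against 9.91%. Both ratios share tumour 1. The receptor chain gene Cd79a had 369.9, 175 and 163 CPM in tumours 1, 2 and 3, and Ciita, which switches on MHC class II genes, had 268, 142 and 107 CPM. The early B cell factor Ebf1 had 13.9, 4.87 and 2.29 CPM. Bach2 is on this list too. Cd22 had 543 ± 192 CPM and Blnk 505 ± 16.8 CPM, and Blnk was nearly equal in the 3 tumours. Cr2 and Fcer2a, both genes of mature resting B cells, lay at 0.842 ± 1.40 and 0.914 ± 0.397 CPM.

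Among genes that PAX5 represses, 1 stood well above the others by mean CPM. Of 11 such genes 8 reached 1 CPM in every tumour. Jchain, the joining chain of secreted antibody, had 35.6, 414 and 233 CPM in tumours 1, 2 and 3 and passed the edgeR test (adjusted p = 0.0363), though not without tumour 1, without tumour 2 or with the filter at a mean count of 10. It was 11.6-fold higher in tumour 2 than in tumour 1, and its order, tumour 2, then 3, then 1, is that of Prdm1 and Irf8 and the reverse of that of Pax5, Irf4 and Bach2. Notch1 had 20.5 ± 4.87 CPM and Grap2 18.7 ± 12.4 CPM. Grap2, also a gene of T cells, was lowest in tumour 2. Sdc1 and Ccl9 stood at 0.422 ± 0.0844 and 0.636 ± 0.595 CPM. Per length, Ccl3 was not low, with a mean of 26.1 TPM. The median of all genes tested was 24.3, 19.3 and 21.7 TPM in tumours 1, 2 and 3.

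Irf8, which encodes a factor of germinal centre and myeloid cells (ENSMUSG00000041515.10, chr8:120736358-120756694), had the smallest unadjusted p of the 9 in the edgeR test, 0.0292, and an adjusted p of 0.691. It had 446, 1228 and 898 CPM in tumours 1, 2 and 3. Irf8 was 2.75-fold higher in tumour 2 than in tumour 1 and 2.01-fold higher in tumour 3 than in tumour 1, where 3.55% and 4.89% of all genes tested were more than 2-fold higher. The order of Irf8 was opposite to that of Irf4. Irf4 minus Irf8 was -0.16, -2.98 and -1.71 in log2(TPM + 1), negative in 3 of 3 tumours, with a mean of -1.61 ± 1.41 (SD, n = 3, exact sign-flip p = 0.25). The mean was -2.87 with the longest and -3.54 with the median transcript as length, -2.34 without tumour 1 and -0.93 without tumour 2. There were 0.622 reads of Irf4 for each read of Irf8 in tumour 1, 0.0871 in tumour 2 and 0.212 in tumour 3. In the IRF family 8 of 9 genes reached 1 CPM in every tumour. Irf1 had 256 ± 28.1 CPM and Irf5 245 ± 32.2 CPM, and Irf7, with 8.04 ± 3.21 CPM, lay near the low end. None of the 8 tested family members was called by edgeR, and 1, Irf8, had an unadjusted p under 0.05. DESeq2 did not call Irf4 or Irf8.

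Spib and Spi1 encode related ETS factors with overlapping functions in B cells. Spib (ENSMUSG00000008193.13, chr7:44525993-44532071, reverse strand) had 545, 365 and 289 CPM in tumours 1, 2 and 3 (edgeR adjusted p = 0.997). Spi1 (ENSMUSG00000002111.8, chr2:91082390-91115756) had 53.5, 57.0 and 70.0 CPM and was the steadiest of the 9, with a 1.31-fold range (edgeR adjusted p = 0.997). Spib minus Spi1 was 3.24, 2.57 and 1.94 in log2(TPM + 1), positive in 3 of 3 tumours, with a mean of 2.58 ± 0.65, 5.99-fold (exact sign-flip p = 0.25). Irf8 minus Spi1 was 2.32 ± 0.68, also positive in 3 of 3 tumours, at 3.22 with the longest transcript as length and 3.70 without division by length. Among 13 ETS genes 12 reached 1 CPM in every tumour, and the third member of the Spi subfamily, Spic, was at 0.998 ± 0.388 CPM. Spib was the most abundant of the list in CPM, followed by Etv6 at 221 ± 30.1 CPM and Elf1 at 182 ± 22.1 CPM, and Ets2, at 12.1 ± 6.10 CPM, was next to Spic at the low end.

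**Figure D3:**
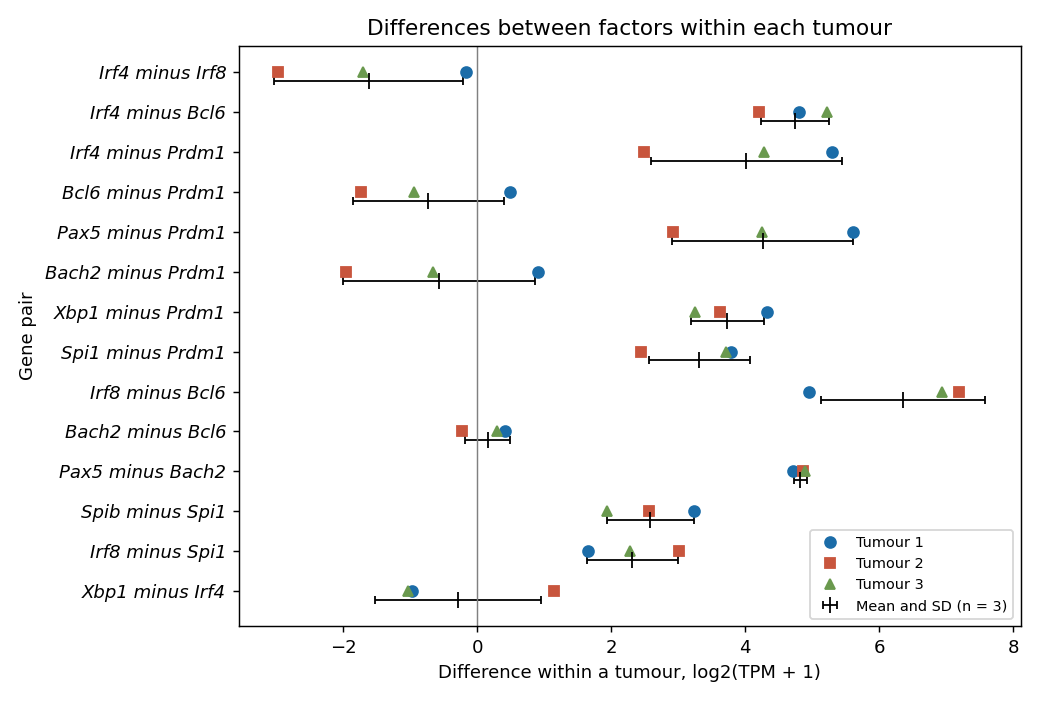
Difference between 2 genes within a tumour in log2(TPM + 1), first minus second gene, for 14 pairs, with 1 marker per tumour and the mean ± SD (n = 3) as a black bar under them. In 10 pairs all 3 tumours lie on 1 side of 0, and in Bcl6 minus Prdm1, Bach2 minus Prdm1, Bach2 minus Bcl6 and Xbp1 minus Irf4 they lie on both.

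Set side by side, the 9 genes were not all highest in the same tumour. Tumour 1 had the highest value of 5 of the 9 (32.4% of all genes tested), tumour 2 of 3 (35.8%) and tumour 3 of 1 (31.8%). Each tumour held the lowest value of 3 of the 9, against 32.5% of all genes for tumour 1, 34.5% for tumour 2 and 33% for tumour 3. These counts of lowest values lay near the shares of all genes. With 9 genes, the counts given here only describe these libraries. Irf4, Bach2 and Pax5 shared the order tumour 1, 3, 2, which 16.9% of all genes tested had, and Prdm1 and Irf8 shared the order 2, 3, 1, which 18.4% had. In tumour 2 over tumour 1, Prdm1 and Irf8 were more than 2-fold higher, 2 of 9 genes against 3.55% of all genes tested. Irf4, Bach2, Bcl6 and Pax5 were more than 2-fold lower, 4 of 9 against 10.1%. In tumour 2 over tumour 3, Prdm1 and Xbp1 were more than 2-fold higher (2 of 9 against 7.94%) and 0 were more than 2-fold lower (9.26% of all genes). Irf8 was more than 2-fold higher in tumour 3 over tumour 1 (1 of 9 against 4.89%), and Bach2 and Bcl6 were more than 2-fold lower (2 of 9 against 9.91%). Each of these ratios compares 2 libraries, and any 2 of the ratios share a tumour.

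Genes that BLIMP1 is known to repress were detected, with Bcl6 low among them. All 11 reached 1 CPM in every tumour, near the 94.2% of all genes tested. Tumour 1, where Prdm1 was lowest, had the highest value of 7 of the 11, against 32.4% of all genes tested. Of these 7, Pax5, Spib and Bcl6 are also circuit genes. Myc had 832, 851 and 1052 CPM in tumours 1, 2 and 3, lowest where Prdm1 was lowest. In tumour 2 over tumour 1, 3 of the 11 were more than 2-fold lower (10.1% of all genes tested) and 1 was more than 2-fold higher (3.55%). The list median of the log2 ratio was -0.58, beside 0.00 for all genes tested. Id3 was the other member near the low end, at 9.87 ± 4.08 CPM, beside Bcl6. By edgeR 0 of the 11 were called, and 3 had an unadjusted p under 0.05, against 6.27% of all genes tested. Of 9 genes for BLIMP1 cofactors 7 reached 1 CPM in every tumour, led by Chd4 at 659.7 ± 122 CPM, Ehmt2 at 297 ± 26.2 CPM and Prmt5 at 264 ± 52.2 CPM. Tle1 and Tle2 were at 0.177 ± 0.0324 and 0.0464 ± 0.0803 CPM.

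Plasma cell genes were present in part. Of 17 plasma cell identity genes 13 reached 1 CPM in every tumour, and Jchain was the only one of the 13 tested that passed the edgeR test. Txndc5, an enzyme of protein folding, had 318 ± 71.9 CPM, and the receptor gene Tnfrsf13b had 248 ± 41.6 CPM. Mzb1, which assists antibody assembly, had 49.2, 93.9 and 31.8 CPM in tumours 1, 2 and 3, the order of Xbp1. Surface genes of plasma cells differed in level. Sdc1, which encodes CD138, was at 0.454, 0.487 and 0.327 CPM, and Tnfrsf17, which encodes BCMA, at 0.130, 0.139 and 0.915 CPM. Slamf7, another surface gene of the list, had 134, 120 and 64.6 CPM, highest in tumour 1. Cd93 was the lowest, at 0.154 ± 0.163 CPM. Summed over the list, tumours 1, 2 and 3 had 1333, 1662 and 1401 CPM, but 1298, 1248 and 1168 CPM without Jchain, so that tumour 1 was then highest.

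**Figure D4:**
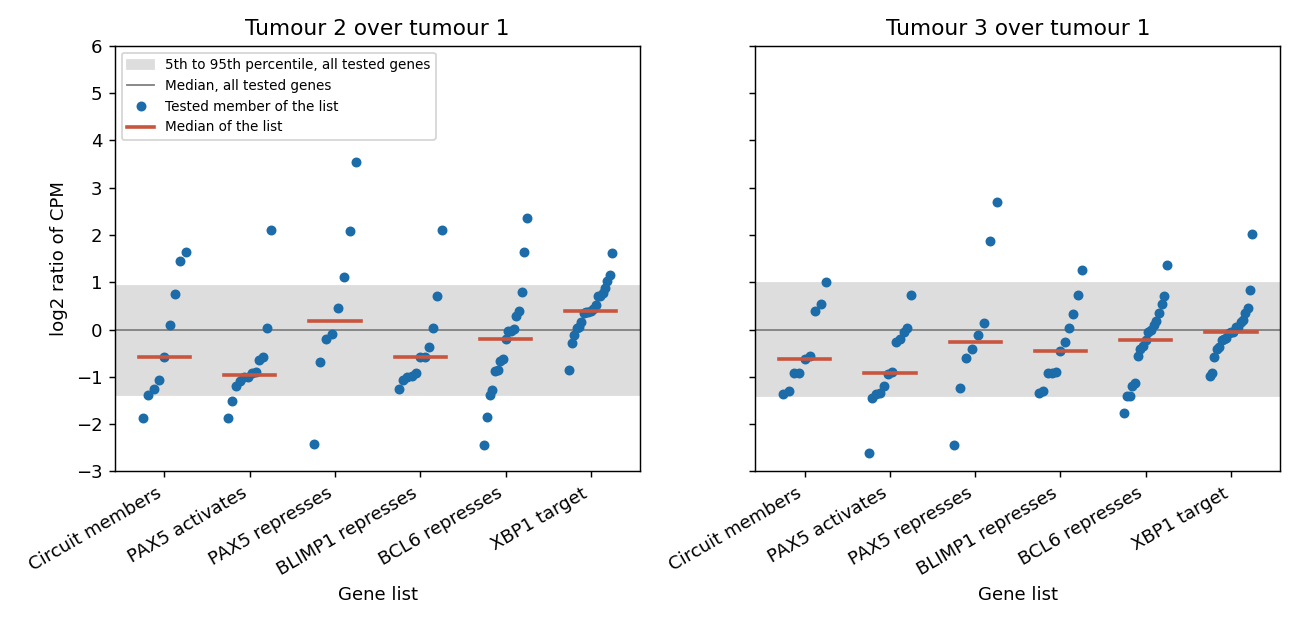
log2 ratio of CPM in tumour 2 over tumour 1 (left) and tumour 3 over tumour 1 (right) for the tested members of 6 gene lists, 1 point per gene and a line at the list median, over a band from the 5th to the 95th percentile of all genes tested. The median of genes that PAX5 activates lies at -0.96 on the left and -0.92 on the right, and that of XBP1 targets at 0.40 and -0.06, and both panels share tumour 1.

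Genes that BCL6 is known to repress were mixed. Of 17 members 16 reached 1 CPM in every tumour and 0 passed the edgeR test. At an unadjusted p under 0.05 that test held 7, against 6.27% of all genes tested. Trp53, itself floxed in every tumour, was 1 of the 7, with 23.9, 20.9 and 61.5 CPM in tumours 1, 2 and 3 (edgeR unadjusted p = 0.0216). Cdkn1a was another (edgeR unadjusted p = 0.0264). The part of the floxed Trp53 in the values of this list was not tested. Nfkb1 had 395 ± 31.0 CPM, Cd44 274 ± 29.2 CPM and Ccnd2 217 ± 127 CPM. The early activation gene Cd69 had 163, 29.98 and 162 CPM in tumours 1, 2 and 3 (edgeR adjusted p = 0.139). The exit receptor gene S1pr1 had 53.6, 14.9 and 88.3 CPM (edgeR adjusted p = 0.192), so both were lowest in tumour 2. The lowest members were Cdkn1a, at 1.77 ± 1.66 CPM, and Prdm1. Of 7 BCL6 corepressor genes 7 reached 1 CPM in every tumour, and 0 were called. Ncor1 had 336 ± 84.8 CPM, Ctbp1 309 ± 64.1 CPM and Tbl1xr1 163 ± 1.28 CPM, with Bcor at 116 ± 35.3 CPM and Mta3 at 76.8 ± 16.6 CPM the lowest.

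Among partners and targets of BACH2, 6 of 6 genes reached 1 CPM in every tumour and 0 were called. The small MAF genes Mafg and Mafk had 64.4 ± 9.18 and 45.0 ± 9.42 CPM, Nfe2l2 65.6 ± 7.01 CPM, and Bach1 15.1 ± 6.70 CPM, with Maff lowest at 4.75 ± 2.51 CPM. Hmox1, the heme oxygenase gene that BACH factors repress, had 7.45, 44.8 and 4.58 CPM in tumours 1, 2 and 3 (edgeR adjusted p = 0.0855). It was highest in the tumour with the least Bach2. Hmox1 is also a gene of macrophages that clear red cells, and the macrophage marker Lyz2, with 7.58, 56.2 and 4.05 CPM (edgeR adjusted p = 0.0372), was highest in tumour 2 as well.

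Marker genes of other cells moved with some of these results. Macrophage and monocyte markers summed to 23.0, 96.1 and 14.2 CPM over 11 genes in tumours 1, 2 and 3, with 4 of 11 at 1 CPM in every tumour. Without Lyz2 the sums were 15.4, 39.9 and 10.1 CPM. Adgre1, with 3.24, 0.626 and 0.850 CPM, and Itgam, with 3.56, 2.02 and 1.31 CPM, were highest in tumour 1 instead. C1qa had 0.583, 7.10 and 1.24 CPM, and Fcgr1 was lowest at 0.518, 0.209 and 0.131 CPM. Prdm1, Irf8, Xbp1, Hmox1 and Jchain were highest in the same tumour 2, and the part of macrophage RNA in those results was not tested. T cell markers summed to 128, 74.8 and 82.1 CPM with 9 of 10 at 1 CPM in every tumour, led by Cd2 at 43.7 ± 24.9 CPM and Lck at 17.5 ± 11.96 CPM. Without Cd2 and Lck the sums were 24.2, 31.9 and 45.1 CPM, lowest in tumour 1, as were 6 of the 10 markers. Whether Cd2 and Lck came from T cells or from the B cells was not tested. The defining chain Cd3e had 1.62, 2.23 and 1.70 CPM. The part of T cell RNA in the levels of Prdm1 and Irf4, which T cells can also express, was not tested. Dendritic cell markers summed to 74.1, 102 and 91.3 CPM, 5 of 9 at 1 CPM in every tumour, led by Bst2 at 54.1 ± 16.5 CPM, with Clec9a at 0.130, 0.139 and 0 CPM and Cd209a at 0 in all 3. Neutrophil markers summed to 58.5, 21.5 and 3.60 CPM, with 0 of 9 at 1 CPM in every tumour. Ngp led at 24.0, 5.91 and 0.981 CPM, and Ly6g was lowest at 0.0648, 0.139 and 0 CPM.

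**Figure D5:**
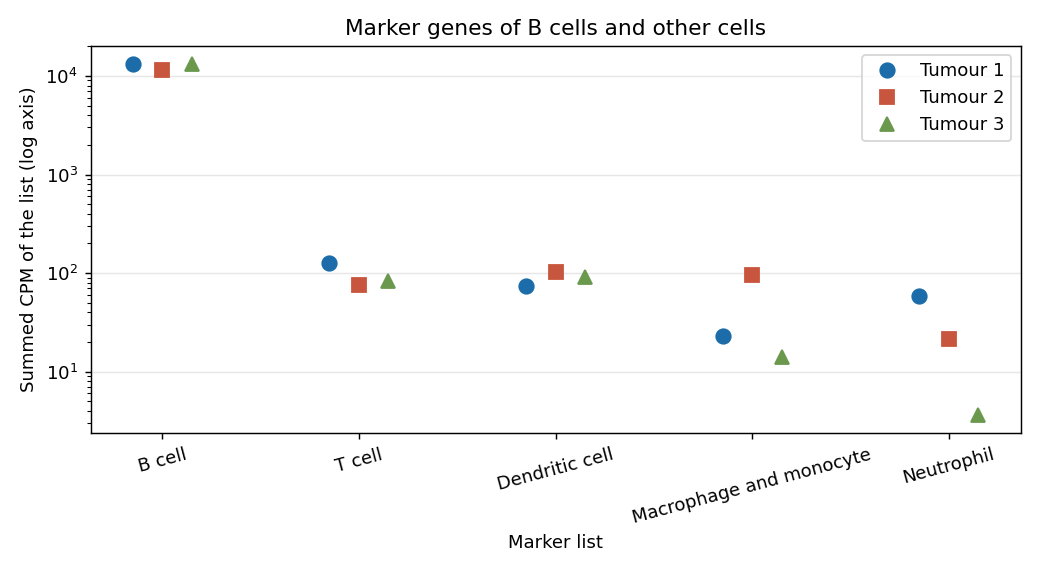
Summed CPM of 5 marker lists on a log axis, 1 point per tumour. B cell markers sum to between 11475 and 13378 CPM, macrophage and monocyte markers are highest in tumour 2 at 96.1 CPM, and neutrophil markers are highest in tumour 1 at 58.5 CPM.

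Other regulators of plasma cell entry spanned a wide range of levels. Of 32 such genes 31 reached 1 CPM in every tumour. Among all genes tested 94.2% did, a share that leaves out genes below the filter. The same 31 were tested and 0 passed the edgeR test, with 5 at an unadjusted p under 0.05, against 6.27% of all genes tested. The Ikaros gene Ikzf1 had 589 ± 232 CPM, Zbtb20 481 ± 176 CPM and Tcf4 478 ± 84.3 CPM, and Batf3 and Spic were lowest at 3.22 ± 1.94 and 0.998 ± 0.388 CPM. Batf, which binds DNA with IRF4 and IRF8 on composite sites, had 98.0, 181 and 59.2 CPM in tumours 1, 2 and 3 (edgeR adjusted p = 0.632), the order of Xbp1. Its partner Jun had 259, 54.9 and 249 CPM (edgeR adjusted p = 0.179), lowest in tumour 2, as Irf4 was. Pou2af1, the B cell coactivator gene that plasma cell differentiation also needs, was steady at 394 ± 25.4 CPM. Ets1, whose product opposes BLIMP1, had 126, 63.4 and 91.8 CPM, the order of Irf4, Bach2 and Pax5.

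The genes whose centred log2 CPM lay closest to that of 3 circuit members were found among 10372 tested genes with characterised symbols, by Euclidean distance over the 3 tumours. For Prdm1 they were Ssbp3, Ifi211 and Morrbid, at distances of 0.071, 0.12 and 0.17 in log2. Ssbp3 had 65.7, 191 and 92.7 CPM in tumours 1, 2 and 3. For Irf4 the nearest were Dmxl1, Syne2 and Clstn1, at 0.030, 0.030 and 0.037, and Tert and Tlr4 lay at 0.017 and 0.023 from Bcl6. Within a distance of 0.25 there were 16 genes around Prdm1, 168 around Irf4 and 145 around Bcl6. With 3 tumours such closeness is a description of these libraries.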

How the data were processed

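Polyadenylated RNA from sorted B220+GFP+ lymphoma cells of 3 pBIC tumours was sequenced as single reads of 50 bases on a DNBseq instrument, per the labels. The authors deposited unnormalized counts of reads for each gene. Per the submitters' processing notes, FastQC, STAR 2.5.2b, featureCounts 1.6.0 and the build mm10 were involved. No setting, strand rule or annotation release is stated in those notes or labels. If reads mapping to several places were left out, counts of near-identical genes are too low.

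Tumour numbers follow accession order and only name the samples. The genes, lists and pairs were chosen with earlier results of these data known. Counts were scaled to CPM with TMM (R 4.3.3, edgeR 4.0.16). TPM used union exon lengths of GENCODE M21 (GRCm38), in which 37536 of 37646 listed genes were found without regard to version, and 110 had no length. The variability test took the residual deviance of an intercept-only edgeR fit over the robust prior variance, one-sided F with 2 and 15.83 degrees of freedom, over genes passing filterByExpr, and was tested on simulated data. Every change planted there was larger than the widest range of a circuit gene, 3.68-fold for Bach2. What the test finds at the size of the circuit ranges is thus not known, and not passing does not show a small spread. DESeq2 1.42.0 was an alternative. Differences between genes used a pseudocount of 1, the exact sign-flip test and Benjamini-Hochberg adjustment over 14 pairs. Exact Poisson intervals have a 95% level. Among lists, the named genes are the 3 highest and 2 lowest by mean CPM, any called gene and known partners or targets of a circuit gene. Other genes named, and the sums without single markers, were chosen after their values were seen. A few genes that this rule names are not reported here. Promoter sequences are from RefSeq (GRCm38.p6), and the Xbp1 intron is from GENCODE M21.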

Additional observations from a re-analysis of the deposited data

How the results depend on the processing

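No paired analysis was possible because all libraries belong to 1 group. Across scalings (library totals, DESeq2 size factors, totals without mitochondrial and immunoglobulin genes) the mean CPM of every circuit gene moved by less than 1 SD. With a tumour left out it ranged from 7.98 to 16.7 CPM for Bach2 and from 7.88 to 14.7 CPM for Prdm1. The test of spread called 0 of the 9 genes under all 8 alternatives, DESeq2 and a newer edgeR fit added after seeing the data included, with adjusted p from 0.614 to 1. The number of genes called over the whole table did change. It was 16, but 164 with no filter beyond 1 count, 0 with a mean count of at least 10 (781 at an unadjusted p under 0.05), 115 by DESeq2 (for this count an alternative added after seeing the data), and 0 to 11 with a tumour left out, with 0 without tumour 1 and 0 without tumour 2. Of the differences within a tumour, some changed direction with the gene length used. With the longest protein-coding transcript, Bach2 minus Bcl6 was -0.42, Xbp1 minus Irf4 0.28 and Spib minus Irf8 -1.0. With the median transcript, chosen after seeing the data, Bach2 minus Bcl6 was -0.33, Xbp1 minus Irf4 1.22 and Xbp1 minus Spi1 -0.32. Without division by length, Bach2 minus Prdm1 was 0.095 and Spib minus Irf8 -1.03. With a tumour left out, Bach2 minus Prdm1 ranged from -1.30 to 0.13 (positive without tumour 2), Xbp1 minus Irf4 from -0.998 to 0.089 (positive without tumour 1 or 3) and Spib minus Irf8 from -0.39 to 0.62 (negative without tumour 1). The order of neighbours within each tier is thus not settled, and the transcripts present were not measured. The tiers themselves kept their members by mean level under every length used. Genes at a few CPM, such as Bcl6 with 73 counts in tumour 3, carry the widest counting error.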
